A study of Mus musculus with 4 samples.

Results

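The 10 claudin genes *Cldn1*, *Cldn2*, *Cldn3*, *Cldn4*, *Cldn5*, *Cldn7*, *Cldn8*, *Cldn10*, *Cldn18* and *Cldn23* were followed in the stomach of WT and *Atp4b-cre; Myc OE* mice. They were chosen by name as claudins of the tight junction, with *Cldn18* as the gastric one, and are 10 of the 33 genes named *Cldn* and a number among the 46095 genes of the count table. Gastric RNA of C57BL/6 mice was sequenced at 12 weeks of age, with 2 samples per genotype analysed here, while the design text of the series speaks of triplicates. In *Atp4b-cre; Myc OE* mice (*Atp4b-cre; Myc fl/+*), Cre driven by the *Atp4b* promoter acts in the parietal cell lineage and turns on *c-Myc* there. The WT samples are labelled wild type, and the methods give *Myc fl/fl* mice, which carry the floxed allele without Cre, as controls. Mice of both sexes were used in the study. The counts summed to 36152857 and 30260305 in WT replicates 1 and 2, and to 31350412 and 41463647 in transgenic replicates 1 and 2. The labels number the samples within each genotype and do not say whether each came from a separate animal, so p-values measure the spread between these samples.

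Claudins are membrane proteins whose outer loops join neighbouring epithelial cells at the tight junction. Some of them seal the path between cells against ions, and others, such as claudin-2, form channels in it. In the glandular stomach a stomach form of claudin-18 is the main claudin and holds back acid, and mice without it leak protons through the epithelium and develop gastritis.

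Gene names and counts were matched before the claudins were compared. In the deposited table the *Cldn18* row held 33583 and 31076 counts in WT against 0 and 0 in *c-Myc* transgenic mice, where a count of 0 allows up to 3 counts per sample. The *Cldn22* row held 28832 and 44467 counts in the transgenic samples. When the transgenic counts, kept in their row order, were given to the same names in character code order (capitals before lower case), each of the 10 claudins took the counts that stood 4 rows away and *Cldn18* took these. Over the 94 rows around the claudins, the mean log2(count + 1) of the genotypes correlated with Pearson's r of 0.055 as deposited and 0.974 in the re-sorted table. Without the 10 claudins, r over the other 84 rows was 0.125 and 0.972. Over all 46095 rows r was 0.526 as deposited and 0.984 in the re-sorted table, and genes are not independent replicates. The WT columns were not moved. The re-sorting was settled on with the data already seen, and the values below are those of the re-sorted table unless the deposited one is named. Mouse *Myc* had re-sorted counts of 1062 and 759 in WT against 735 and 1091 in the transgenic samples, and no row is named for a human transgene.

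A gene was called when edgeR's quasi-likelihood test gave an adjusted p-value under 0.05 and the fold change was above 1.5 in either direction. Of the 10 claudins 9 had enough counts to be tested, and 1 of these (11.1%), *Cldn8*, was called, against 10.7% of all 17643 genes tested. It was lower in transgenic mice, where 5.08% of all genes were called lower. No claudin was called higher by edgeR or DESeq2, against 5.65% of all genes by edgeR, and 2 were higher at an unadjusted p-value under 0.05. At that level, in either direction, were 3 of the 9 claudins and 6024 of all 17643 genes. The share of claudins called was close to that of all genes. The normalized levels of the genotypes did not overlap for 6 of the 9 claudins, and for 64.9% of all genes. The median log2 fold change was 0.57 over the 9 claudins and 0.01 over all genes tested. In the table as deposited 8 of 9 claudins tested were called, 2 higher and 6 lower, against 84.1% of all genes.

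*Cldn8*, which encodes a claudin that limits the passage of cations and is best known from the distal nephron and colon, lies in 1 exon on chromosome 16 (chr16:88560828-88563183, minus strand, GRCm38). It had 250 and 248 counts in WT against 86 and 74 in *c-Myc* transgenic mice. Its normalized level (CPM, the count scaled to a common library size with TMM factors) was 7.45 and 8.89 in the WT samples and 2.54 and 1.66 in the transgenic samples. Both transgenic samples lay below both WT samples, and the gap between the genotypes was larger than the spread within either. *Cldn8* fell from 8.17 ± 1.02 (SD, n = 2) to 2.10 ± 0.622 (SD, n = 2) CPM. It was 3.90-fold lower, and its log2 fold change was -1.96 (standard error 0.32, adjusted p = 0.0350 in edgeR). In bulk tissue, fewer cells of a type and less RNA per cell cannot be told apart. The call was lost without WT replicate 1 (adjusted p = 0.205) and without WT replicate 2 (adjusted p = 0.246), where edgeR called 0 genes in all, and the log2 fold changes there were -2.09 and -1.83. Over 10 alternatives on the re-sorted table the log2 fold change lay between -2.30 and -1.69 and the adjusted p between 5.2e-06 with DESeq2 and 0.246.

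*Cldn18* (chr9:99689461-99717267, minus strand) is the most abundant of the 10 genes per kb of exonic length, here and below by the mean of the 4 samples. It had 33583 and 31076 in WT against 28832 and 44467 in transgenic mice. The CPM were 1001 and 1114 in WT against 850.1 and 995.5 in transgenic mice. The levels of the genotypes nearly met, with transgenic replicate 2 just under WT replicate 1. The log2 fold change was -0.20 (standard error 0.13, adjusted p = 0.349 from edgeR), with a 95% interval from -0.54 to 0.15. It was 0.027 when scaled by library size without TMM, which moved the median of all genes from 0.01 to 0.23. *Cldn18* gave no call while markers of the gastric glands fell steeply in the same samples. *Atp4a*, which encodes the catalytic subunit of the proton pump of parietal cells, fell from 7684 and 7949 CPM to 138.5 and 187.1 CPM (log2 fold change -5.59, standard error 0.22, adjusted p = 0.00884 from edgeR). All 6 parietal cell markers were called lower (*Atp4a*, *Atp4b*, *Slc26a7*, *Kcne2*, *Kcnq1* and *Clic6*). So were 3 of 4 chief cell markers (*Pgc*, *Gif* and *Bhlha15*) and 4 of 4 surface mucous cell markers (*Muc5ac*, *Gkn1*, *Gkn2* and *Tff1*). The summed CPM of the surface mucous markers was 44889 and 53560 in WT against 10957 and 17193 in transgenic mice, and that of the chief cell markers was 82849 and 78449 against 1194 and 1514. *Pgc* had a log2 fold change of -6.00 and *Gkn2*, the most abundant surface mucous marker per kb, -1.88. The mucous neck cell markers *Muc6* and *Tff2*, with summed CPM of 9863, 12194, 19714 and 8667 in WT replicates 1 and 2 and transgenic replicates 1 and 2, gave 0 calls by edgeR or DESeq2 and 0 unadjusted p-values under 0.05. The part of these cell types in the level of *Cldn18* was not tested.

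The *Cldn18* count does not separate transcripts from 2 annotated starts, and the lung and stomach forms of the protein are known to differ by their first exon. GENCODE vM21 lists 4 transcripts, 2 from position 99717267 and 2 from 99710063 and 99710009, about 7.20 kb further along the gene. A count per gene does not say which start was used. The 120 bases before each start (RefSeq, GRCm38.p6, minus strand) are shown because transcripts from either start would add to that count. They lie at chr9:99717268-99717387 and chr9:99710064-99710183, and neither holds any of the 5 motifs searched, so all letters are in lower case.
Upstream start: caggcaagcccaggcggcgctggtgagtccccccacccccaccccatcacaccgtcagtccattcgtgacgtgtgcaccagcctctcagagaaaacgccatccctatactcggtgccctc
Downstream start: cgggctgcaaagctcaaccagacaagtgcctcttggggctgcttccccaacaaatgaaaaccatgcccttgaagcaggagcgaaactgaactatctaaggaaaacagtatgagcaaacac

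**Figure D1:**
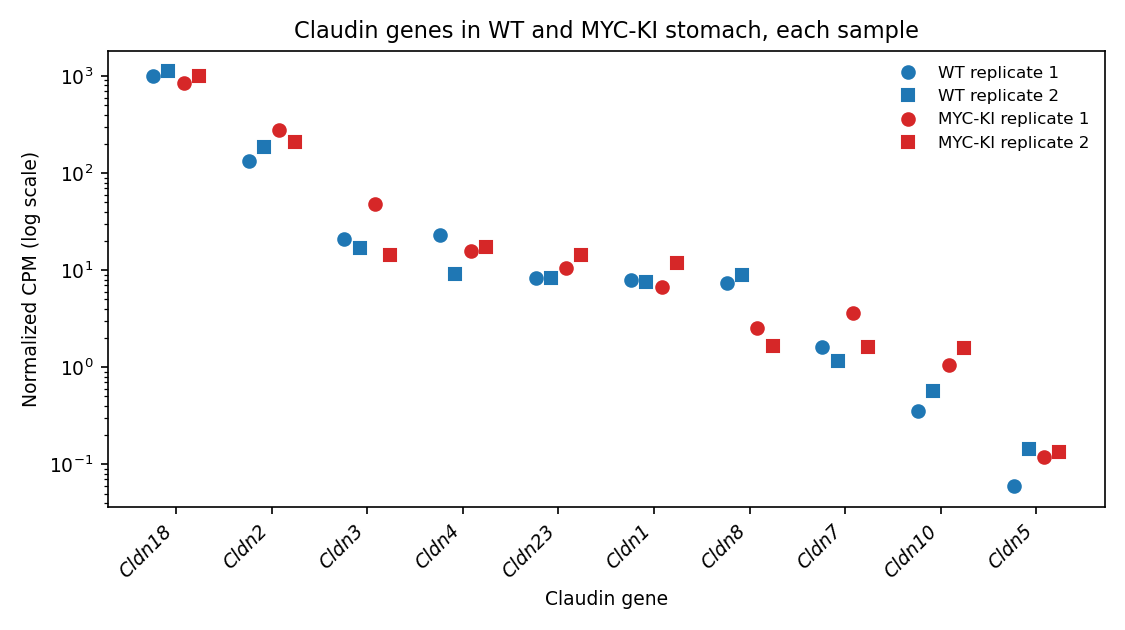
Normalized CPM (log scale) of the 10 claudin genes in each sample, with WT in blue, MYC-KI (*Atp4b-cre; Myc OE*) in red, circles for replicate 1 and squares for replicate 2. *Cldn18* lay between 850.1 and 1114 CPM in the 4 samples, the transgenic samples lay below WT for *Cldn8*, and *Cldn3* was high in transgenic replicate 1 alone.

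*Cldn2*, *Cldn7*, *Cldn10* and *Cldn23* had higher values in both transgenic samples than in both WT samples, and none of these 4 was called. *Cldn2* (chrX:139800828-139811386, plus strand), which encodes a channel for sodium and water typical of leaky epithelia, had 4441 and 5189 counts in WT against 9325 and 9399 in *c-Myc* transgenic mice. Its CPM were 132.3 and 186.0 in WT against 274.9 and 210.4 in transgenic mice. The lower transgenic sample exceeded the higher WT sample by less than the WT samples differed from each other. The log2 fold change was 0.61 (standard error 0.22, adjusted p = 0.144 from edgeR), with a 95% interval from 0.01 to 1.21 before adjustment. *Xist*, which marks female tissue, had 85 and 17846 counts in WT against 113 and 201 in transgenic mice, and the Y-linked *Ddx3y* had 1861 and 5 against 1941 and 2623. By these sex-linked genes WT replicate 2 was of female type and the other samples were of male type. Sex was therefore not balanced between the genotypes, and for every gene the spread of the WT pair includes a difference of sex. Without WT replicate 2, with 1 WT sample left, the log2 fold change of the X-linked *Cldn2* was 0.87. A part of sex in the level of *Cldn2* or of the other genes was not tested. The log2 fold change of *Cldn2* was 0.38 without WT replicate 1 and 0.40 without transgenic replicate 1.

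*Cldn10*, whose splice forms make either cation or anion channels, had 12 and 16 counts in WT against 36 and 71 in transgenic mice. These low counts corresponded to 0.358 and 0.574 CPM in WT against 1.06 and 1.59 CPM in transgenic mice. The groups did not overlap, and the log2 fold change was 1.51 (standard error 0.49, adjusted p = 0.114 from edgeR). It had a 95% interval from 0.19 to 2.83. Without each sample in turn it lay between 1.19 and 1.88, and it was not called in any of the 10 alternatives on the re-sorted table.

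Among the claudin promoters at hand, that of *Cldn2* was the only one with a TATA box by the letters TATAAA. The set of RefSeq promoters used here held 8 of the 10 claudins, in 11 windows of 250 bases before a start. It held none for *Cldn8* and *Cldn23*, whose promoters were therefore not searched. TATAAA was found on either strand in 1 of the 11 windows and in 12.4% of all 32851 windows. The 120 bases before the *Cldn2* start (chrX:139800688-139800807, plus strand, GRCm38.p6) are shown with the match in capitals, its first base at -35.
*Cldn2*: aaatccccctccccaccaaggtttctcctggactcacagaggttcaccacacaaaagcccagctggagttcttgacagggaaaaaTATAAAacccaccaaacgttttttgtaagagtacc
CACGTG, the E-box that MYC binds with MAX, was in 0 of the 11 windows and in 6.02% of all windows. CAGGTG, an E-box read by SNAIL and ZEB factors, was in 2 windows, those of *Cldn4* and *Cldn7*, and in 17.2% of all. TGACTCA, the AP-1 motif, was in the *Cldn4* window only, at -240 and -158, and in 4.46% of all windows, and the GC box GGGCGG was in 6 windows and 32.7% of all. All motifs were searched on both strands, and a match or its lack says nothing here about binding.

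*Cldn3*, a barrier claudin of gut and gland epithelium (chr5:134986214-134987472, plus strand), had 698 and 468 counts in WT against 1638 and 639 in *c-Myc* transgenic mice. The CPM were 20.8 and 16.8 in WT against 48.3 and 14.3 in transgenic mice, so the transgenic samples were both the highest and the lowest of the 4. The log2 fold change was 0.73 (standard error 0.60, adjusted p = 0.447 from edgeR). It turned to -0.39 without transgenic replicate 1, and without transgenic replicate 2 it was 1.36 and *Cldn3* was called (adjusted p = 0.0233), with the lone transgenic sample assumed to vary like the WT samples. *Cldn4*, which lies 39.3 kb from *Cldn3* with 0 protein-coding genes between them, did not share this pattern. It had 768 and 257 counts in WT against 529 and 782 in transgenic mice, or 22.9, 9.21, 15.6 and 17.5 CPM in the same order. The WT samples enclosed both transgenic samples, and the log2 fold change was 0.04 (standard error 0.46, adjusted p = 0.957 from edgeR). It was -0.47 without WT replicate 2.

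*Cldn7*, a claudin that also sits along the lateral membrane of epithelial cells, had 54 and 32 counts in WT against 122 and 72 in transgenic mice. At 1.61 and 1.15 CPM in WT against 3.60 and 1.61 CPM in transgenic mice, the groups met at WT replicate 1 and transgenic replicate 2. Its log2 fold change was 0.91 (standard error 0.53, adjusted p = 0.296 from edgeR), and it was 0.22 without transgenic replicate 1. *Cldn1*, a barrier claudin that is needed for the water barrier of the skin, had 266 and 210 counts in WT against 227 and 530 in transgenic mice, with CPM of 7.93, 7.53, 6.69 and 11.9. Transgenic replicate 2 was high and transgenic replicate 1 was the lowest of all (log2 fold change 0.27, standard error 0.33, adjusted p = 0.616 from edgeR, and -0.21 without transgenic replicate 2). *Cldn23* had 281 and 234 counts in WT against 356 and 645 in transgenic mice. Its CPM were 8.37 and 8.39 in WT against 10.5 and 14.4 in transgenic mice. The transgenic samples were higher without overlap and were not called (log2 fold change 0.57, standard error 0.22, adjusted p = 0.154 from edgeR, 95% interval from -0.02 to 1.16). Without transgenic replicate 2 the log2 fold change was 0.33.

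*Cldn5*, the claudin of vascular endothelium, was close to absent from the counts. It had 2 and 4 counts in WT against 4 and 6 in *c-Myc* transgenic mice and did not pass the filter on low counts. Endothelial markers were present in the same samples, with a summed CPM of 533.4 and 514.9 in WT against 219.1 and 209.7 in transgenic mice. Of 9 endothelial markers 8 were called lower (*Pecam1*, *Cdh5*, *Kdr*, *Tie1*, *Tek*, *Flt1*, *Emcn* and *Vwf*) and 0 had no counts. *Pecam1*, the most abundant per kb, had 91.7 and 103.1 CPM in WT against 45.7 and 42.9 CPM in transgenic mice (log2 fold change -1.14). With so few counts no change of *Cldn5* was detectable, and the reason for its low counts beside these markers was not tested.

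Levels were compared between claudins per kb of exonic length. In WT the order was *Cldn18* (237.3 CPM per kb), *Cldn2* (47.9), *Cldn3* (14.9), *Cldn4* (8.84), *Cldn23* (4.53), *Cldn8* (3.47), *Cldn1* (1.60), *Cldn7* (0.707), *Cldn10* (0.180) and *Cldn5* (0.0717). In transgenic mice it was *Cldn18* (207.1), *Cldn2* (73.0), *Cldn3* (24.9), *Cldn4* (9.11), *Cldn23* (6.75), *Cldn1* (1.92), *Cldn7* (1.34), *Cldn8* (0.890), *Cldn10* (0.512) and *Cldn5* (0.0891). *Cldn8* moved from above *Cldn1* and *Cldn7* in both WT samples to below both in both transgenic samples, and the other members had the same order of means in both genotypes. Single samples departed from it, since *Cldn7* was above *Cldn1* in transgenic replicate 1 (1.85 and 1.38 CPM per kb). Other neighbours came close, such as *Cldn4* and *Cldn23* in WT replicate 2 (5.07 and 4.54 CPM per kb) and *Cldn3* and *Cldn4* in transgenic replicate 2 (11.4 and 9.64 CPM per kb). *Cldn18* made up 73.9% and 74.6% of the summed CPM per kb of the 10 genes in WT and 57.7% and 69.8% in transgenic replicates 1 and 2. The share of *Cldn2* was 13.1% and 16.7% in WT and 25.0% and 19.8% in transgenic mice. The fall in the *Cldn18* share was widest in transgenic replicate 1, where *Cldn3* took 11.6%, against 3.55% to 5.44% in the other samples. These shares were not tested.

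**Figure D2:**
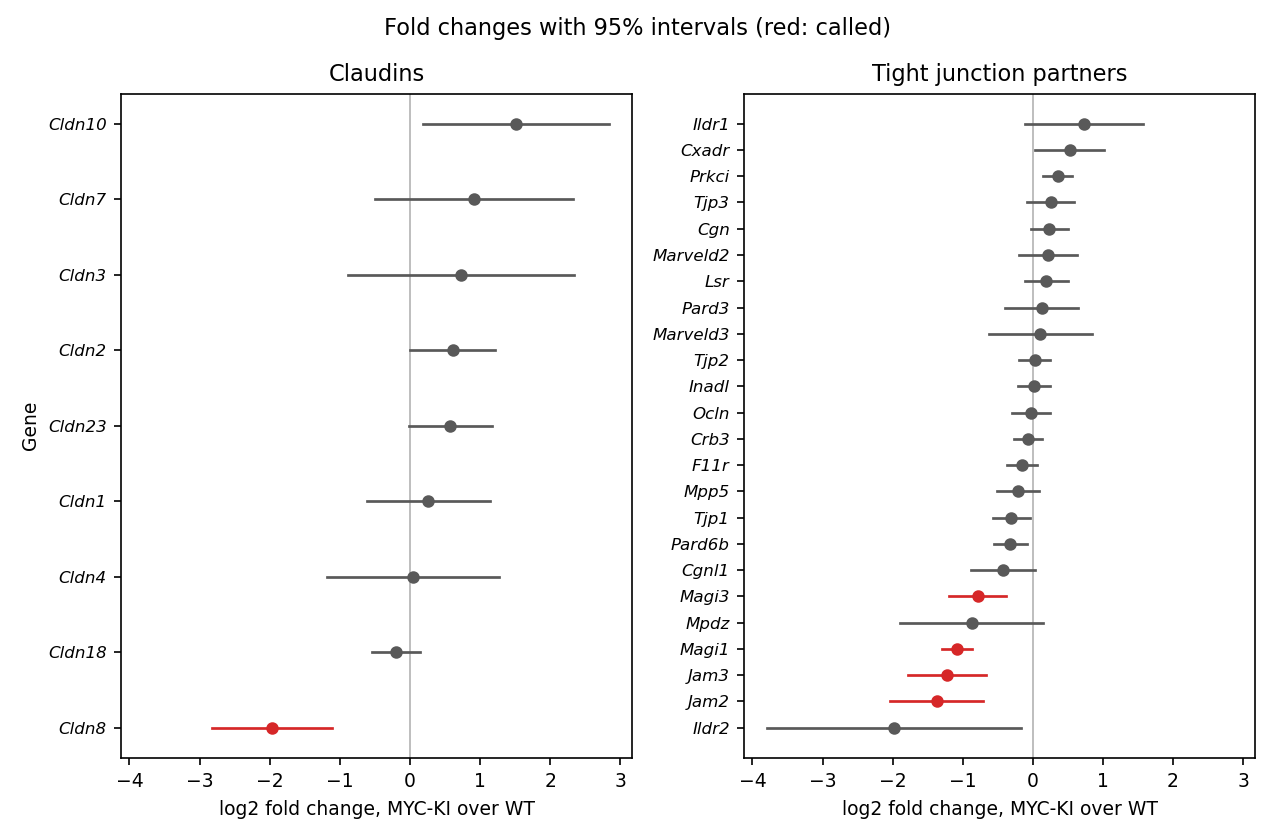
Log2 fold changes (MYC-KI, that is *Atp4b-cre; Myc OE*, over WT) of the 9 claudins tested and of 24 other tight junction genes, with 95% intervals before adjustment as lines and called genes in red. *Cldn8* is the only claudin called, at -1.96, and the 4 other genes called (*Jam2*, *Jam3*, *Magi1* and *Magi3*) are also lower.

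Of the 23 other *Cldn* genes, 6 were tested (*Cldn11*, *Cldn12*, *Cldn15*, *Cldn17*, *Cldn22* and *Cldn34c1*), and 0 were called by edgeR or DESeq2, with 1 at an unadjusted p-value under 0.05. Of all genes, edgeR called 10.7% and DESeq2 called 3232 of 17921. An unadjusted p-value under 0.05 in edgeR was found for 6024 of 17643. Of the 17 *Cldn* genes not tested, 11 had no counts in any sample. *Cldn12*, the most abundant of the 23 genes per kb, had 50.9 and 60.6 CPM in WT against 59.2 and 50.8 CPM in transgenic mice (log2 fold change -0.02). *Cldn17* lies 53.8 kb from *Cldn8* with 0 protein-coding genes between them (chr16:88505807-88506978, minus strand). It had 1.85 and 0.860 CPM in WT against 0.206 and 3.49 CPM in transgenic mice, so the samples were not ordered as for *Cldn8*, which was lowest in transgenic replicate 2.

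Some claudins had the same order of samples as some regional markers of the gut. The intestinal markers summed to 633.4 and 377.5 CPM in WT against 660.0 and 233.5 CPM in *c-Myc* transgenic mice, with 0 of 6 called by edgeR or DESeq2 and 0 unadjusted p-values under 0.05. *Vil1*, the most abundant of them per kb over the 4 samples (*Fabp2* was in WT), had 311.9, 240.8, 333.1 and 193.1 CPM in WT replicates 1 and 2 and transgenic replicates 1 and 2. *Cldn15*, a channel-forming claudin of the small intestine, had 22.5, 14.2, 48.7 and 4.10 CPM in these samples. *Cldn3* and *Cldn15* both had the sample order of the intestinal sum, with transgenic replicate 1 highest and transgenic replicate 2 lowest. Of the 6 markers 3 had this order (*Cdx1*, *Cdh17* and *Vil1*), while *Muc2* and *Fabp2* were highest in WT replicate 1 and *Cdx2* was higher in WT replicate 2 than in WT replicate 1. Like *Cldn3*, *Cldn15* depended on 1 sample. Its log2 fold change of 0.52 (adjusted p = 0.782 from edgeR) became -2.16 without transgenic replicate 1, where it was called (adjusted p = 0.0426) under the same assumption for the lone transgenic sample.

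The 8 forestomach squamous markers summed to 2287 and 1279 CPM in WT against 770.6 and 3927 CPM in transgenic mice. Of these 0 were called by edgeR, 1 by DESeq2, and 1 had an unadjusted p-value under 0.05. All 8 had log2 fold changes above 0 in edgeR, with a median of 1.16. *Krt13*, the most abundant per kb, had 885.8, 512.0, 223.3 and 1368 CPM in WT replicates 1 and 2 and transgenic replicates 1 and 2. *Cldn1* and *Cldn17* shared this order, with transgenic replicate 2 highest and transgenic replicate 1 lowest, and *Cldn23* was also highest in transgenic replicate 2. Only 3 of the 8 markers had it (*Krt13*, *Krt4* and *Sprr3*). *Krt5*, *Krt14*, *Trp63* and *Dsg3* were highest in transgenic replicate 2 and lowest in WT replicate 2, and *Ivl* was highest in transgenic replicate 1. With 4 samples an order shared by 2 genes is a description, and the part of forestomach or intestinal tissue in these claudin levels was not tested.

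**Figure D3:**
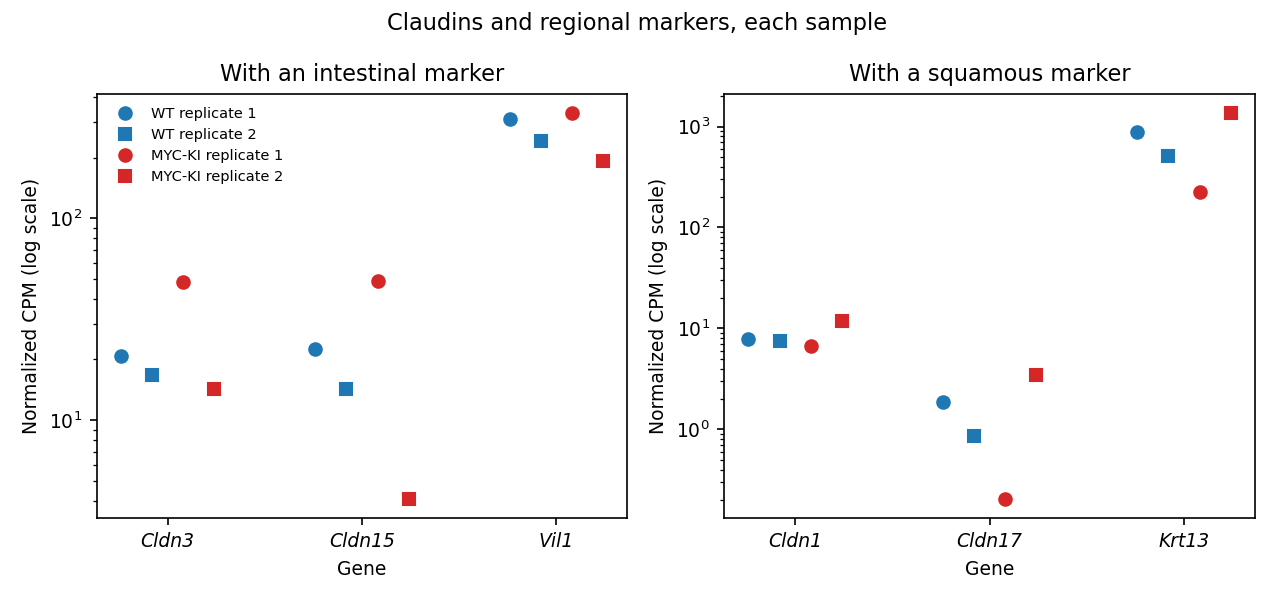
Normalized CPM (log scale) in each sample of *Cldn3* and *Cldn15* beside the intestinal marker *Vil1*, and of *Cldn1* and *Cldn17* beside the squamous marker *Krt13*. MYC-KI (*Atp4b-cre; Myc OE*) replicate 1 is highest and replicate 2 lowest in the left panel, and the reverse holds in the right panel.

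The other components of the tight junction gave 4 calls among 24 genes tested (16.7%), against 10.7% of all genes. All 4 were lower in *Atp4b-cre; Myc OE* mice, where 5.08% of all genes were called lower, and the difference between these shares was not tested. With DESeq2 the number was 5, against 3232 of 17921 genes, with *Ildr2* (log2 fold change -1.98 and adjusted p = 0.124 in edgeR) in addition. By either test 0 were called higher, against 5.65% of all genes by edgeR and 1502 of 17921 by DESeq2. At an unadjusted p-value under 0.05 in edgeR 2 were higher and 7 lower. In either direction 6024 of all 17643 genes were at that level. The median log2 fold change of the 24 genes was -0.05. The calls lay in 2 groups. Among the 4 junctional adhesion molecules, *Jam2* had 42.9 and 40.7 CPM in WT against 12.5 and 19.8 CPM in transgenic mice (log2 fold change -1.37, standard error 0.25, adjusted p = 0.0406 from edgeR). *Jam3* had 21.6 and 20.04 CPM in WT against 7.49 and 10.3 CPM in transgenic mice (log2 fold change -1.23, standard error 0.21, adjusted p = 0.0372). Both proteins are known from endothelial as well as epithelial junctions, and the endothelial markers given with *Cldn5* were lower in the same samples, whose part here was not tested. *F11r*, the epithelial member most abundant per kb, had 186.7 and 184.5 CPM in WT against 171.1 and 161.7 CPM in transgenic mice and was not called (log2 fold change -0.16).

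Among the 8 plaque scaffolds, which tie claudins to the cytoskeleton, *Magi1* had 103.7 and 111.5 CPM in WT against 51.2 and 50.8 CPM in transgenic mice (log2 fold change -1.08, standard error 0.08, adjusted p = 0.0157 from edgeR). *Magi3* had 21.7 and 21.8 CPM in WT against 11.5 and 13.7 CPM in transgenic mice (log2 fold change -0.79, standard error 0.15, adjusted p = 0.0455), and this call was lost when scaled by library size without TMM, and also in the absence of transgenic replicate 1. The other 6 scaffolds, with log2 fold changes from -0.87 to 0.26, were not called, and *Tjp3*, the most abundant per kb, had 174.2, 205.3, 240.4 and 212.8 CPM in the 4 samples (log2 fold change 0.26). The calls of all 4 genes were lost without WT replicate 1 or WT replicate 2, as for *Cldn8*. Their log2 fold changes there were -1.33 and -1.41 for *Jam2*, -1.17 and -1.29 for *Jam3*, -1.13 and -1.03 for *Magi1*, and -0.79 and -0.79 for *Magi3*.

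None of the 3 MARVEL proteins, 3 angulins and 6 polarity genes was called by edgeR. *Ocln*, which encodes occludin, had 99.9 and 108.6 CPM in WT against 96.5 and 108.2 CPM in *c-Myc* transgenic mice. Its log2 fold change was -0.03 (standard error 0.10), with a 95% interval from -0.30 to 0.24, and 0.20 when scaled by library size without TMM. *Lsr*, the angulin most abundant per kb, had 224.0, 264.6, 285.7 and 273.1 CPM (log2 fold change 0.19), and *Crb3*, the leading polarity gene, 64.2, 67.5, 63.9 and 61.8 CPM (log2 fold change -0.07).

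Of 13 transcription factors known to act on claudin genes 1 (7.69%) was called, against 10.7% of all genes. This was *Zeb2*, a repressor of epithelial junction genes. It had 40.3 and 49.5 CPM in WT against 16.6 and 20.7 CPM in transgenic mice (log2 fold change -1.27, standard error 0.18, adjusted p = 0.0287 from edgeR). The call was lost without WT replicate 1 and without WT replicate 2, where the log2 fold changes were -1.41 and -1.11. Endothelial markers and the macrophage marker *Adgre1* were also lower in these samples. Of the leukocyte markers listed with *Adgre1*, *Lyz2* was also called lower. *Cd68* from that list was not called, with 8.79 and 7.10 CPM in WT against 5.25 and 8.95 CPM in transgenic mice (log2 fold change -0.16). Whether *Zeb2* fell with any of these cells was not tested. *Hnf4a*, the most abundant per kb, had 231.8 and 238.2 CPM in WT against 299.6 and 246.3 CPM in transgenic mice and was not called (log2 fold change 0.22). The log2 fold changes of the 12 factors not called lay between -1.19 and 0.59.

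Markers of other cell types are given with their summed levels. Of 6 leukocyte markers *Lyz2* and *Adgre1* were called lower, and *Lyz2* was the most abundant per kb (summed CPM of the list 182.7 and 192.5 in WT, 79.9 and 74.3 in transgenic mice). The other 4 leukocyte markers had log2 fold changes from -0.28 to 0.12, and *Ptprc*, which marks all leukocytes, had 15.0, 21.2, 21.9 and 13.3 CPM in the 4 samples. Of 4 adipocyte markers *Lep* was called lower by edgeR and 3 by DESeq2, all 4 had a lower value with unadjusted p < 0.05, and the list, in which *Cidec* was the most abundant per kb over the 4 samples and *Adipoq* in WT, summed to 60.9 and 150.3 CPM in WT against 19.1 and 28.3 CPM in transgenic mice. Of 9 pancreatic acinar markers 4 were tested, and *Cela1*, *Cela2a* and *Clps* were called lower by edgeR and all 4 by DESeq2. The defining markers *Cpa1* and *Prss2* had 0 counts in all samples. *Clps* was the most abundant of the list per kb in WT and *Cela1* in transgenic mice (summed CPM of the list 404.2 and 339.0 in WT, 129.5 and 151.9 in transgenic mice). The 5 smooth muscle markers, led by *Acta2*, gave 0 calls by edgeR or DESeq2 and 0 unadjusted p-values under 0.05, with sums of 6950 and 4426 CPM in WT against 2246 and 4849 CPM in transgenic mice. The part of these cells in the claudin levels was not tested.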

How the data were processed

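Gastric RNA was measured in 2 WT and 2 *Atp4b-cre; Myc OE* samples. The authors deposited raw counts of reads per gene symbol, without normalization. HISAT2 and the build mm10 are named in the submitters' processing notes. The counting tool, its annotation, its strand setting and its treatment of reads shared by paralogs are not given in the sources used here, so *Cldn3* (40 exonic bases shared with the antisense *Wbscr25*) and the close *Cldn34* copies are uncertain to that extent. Columns were mapped by name. The transgenic counts, in row order, were given to the names sorted by character code, and the deposited order was kept as an alternative. The members and gene lists were chosen with earlier results of these data known.

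Tests used edgeR 4.0.16 under R 4.3.3 (TMM, filterByExpr on genotype, glmQLFit, glmQLFTest, Benjamini-Hochberg adjustment over all genes tested) on all 4 samples without covariates. Following the study's methods, calls needed an adjusted p under 0.05 and a log2 fold change beyond 0.585 in either direction. Standard errors are the absolute log2 fold change over the square root of F. The tests were checked on data simulated with the same spread beyond counting noise for every gene and both genotypes. Replicates of a genotype differed beyond counting noise (chi-square per degree of freedom 31.1 in WT and 105.9 in transgenic mice). With 30260305 to 41463647 counts in a sample, 0 observed counts allow up to 3, for counting error only. Exonic lengths and coordinates came from GENCODE vM21 (GRCm38, the build mm10), promoters from RefSeq (GRCm38.p6). Genes named are the 10 members, other *Cldn* genes by count, and from each list the called genes and the most abundant per kb over the 4 samples. *Cldn15*, *Cldn17*, *Ildr2*, *Grhl2*, *Ptprc*, *Cd68*, *Cpa1*, *Prss2*, *Adipoq* and the markers whose sample orders were compared were named after their values were seen. Alternatives were the deposited table, DESeq2 1.42.0, its size factors in edgeR, library size alone, no low-count filter, a minimum of 10 counts throughout, a replicate block, calls without a fold change threshold or beyond a log2 fold change of 1, and leaving out each sample.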

Additional observations from a re-analysis of the deposited data

How the results depend on the processing

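Of the 9 claudins tested, *Cldn8* was called under 7 of 10 alternatives on the re-sorted table and lower under all 10. *Cldn2*, *Cldn7*, *Cldn10* and *Cldn23* were higher under all 10 and called under none, by edgeR or DESeq2. Against 1892 genes called, 3232 were called with DESeq2, 3011 with library size (75.5% of them higher, against 52.6%), 1113 with an absolute log2 fold change above 1 and 18580 in the deposited table. Leaving out each sample gave 0 to 2470 genes, 0 to 2 claudins and 0 to 6 tight junction partners. The 0 came without WT replicate 1 or 2, where the lone WT sample is assumed to vary like the transgenic ones (as a lone transgenic sample is like the WT ones), and there 3554 and 3410 genes had an unadjusted p-value under 0.05, 2 claudins each time. The cause was not tested. With a replicate block 114 genes, 0 claudins and 0 partners were called by edgeR (5178 genes, 2 claudins and 10 partners at an unadjusted p-value under 0.05). *Cldn8* had a log2 fold change of -1.99 with the block (adjusted p = 0.0824), *Cldn15* -0.31 and *Cldn17* -0.36. *Zeb2* had an adjusted p of 0.0541 with it. Deviations of same-numbered samples correlated at 0.063 over genes. This rests on 1 difference per genotype and cannot show whether same-numbered samples shared anything beyond the number.

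As deposited, 8 of the 9 claudins tested and 19 of the 24 partners were called, against 84.1% of 22083 genes tested. Log2 fold changes there were -0.10 for *Cldn1*, -13.20 for *Cldn2*, -5.45 for *Cldn3*, -9.03 for *Cldn4*, at most -3.92 for *Cldn7* (0 counts in both transgenic samples, taken as 3 per sample), 1.08 for *Cldn8*, -7.57 for *Cldn23*, -6.44 for *Cldn15*, -3.90 for *Cldn17*, 1.11 for *Jam3*, 0.12 for *Magi3*, -11.39 for *Lsr*, -3.15 for *Tjp3*, -9.87 for *Hnf4a*, 4.22 for *Ildr2* and 0.33 for *Pecam1*. All of these turned the direction, because other genes' counts stand in these rows, and fitted values near 0 counts depend on the prior count. With library size alone the direction turned for *Cldn18* (0.027), *Cldn12* (0.20), *Ocln* (0.20), *F11r* (0.065) and *Crb3* (0.16), each under the shift of 0.22 in the median of all genes.

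Leaving out 1 sample turned *Cldn1* (-0.21 to 0.62), *Cldn3* (-0.39 to 1.36), *Cldn4* (-0.47 to 0.84), *Cldn12* (-0.14 to 0.11), *Cldn15* (-2.16 to 1.41), *Cldn17* (-2.69 to 1.36) and *Ocln* (-0.11 to 0.055). It kept the sign but moved *Cldn2* (0.38 to 0.87), *Cldn7* (0.22 to 1.38), *Cldn18* (-0.31 to -0.086), *Cldn23* (0.33 to 0.79), *Lsr* (0.077 to 0.32), *Tjp3* (0.14 to 0.38), *Hnf4a* (0.069 to 0.35), *Crb3* (-0.10 to -0.033) and *Ildr2* (-2.99 to -1.40) by over 1.5 times. With 2 samples per genotype the spread within a genotype rests on 1 difference, and *Cldn5* and *Cldn10*, with the fewest counts of the 10 claudins, carry the largest counting error.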
